A study of Mus musculus with 6 samples.

Results

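The genes described here are Wnt ligands and the proteins that receive, amplify or block their signal. A fixed list of 46 mouse gene symbols set the membership, and a gene was read from array probe sets that the platform annotation gives to that symbol alone. Of the 46 genes, 45 were measured, out of 18193 genes in all. Tcf7 was not analysed here. Where a gene had several probe sets, the one with the highest mean over the 6 arrays was read.

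Messenger RNA had been profiled on Affymetrix 3' expression arrays in hepatic stellate cells, the vitamin A storing pericytes of the liver, which turn into matrix-producing myofibroblasts after injury. Cells of the proliferating group (3 arrays) received 1 ug/ml doxycycline and carry a p53 knockdown, per the labels. Cells of the senescent group (3 arrays) have the treatment label control and express p53. All 6 samples carry CMV-rtTA;TRE-GFP-shRNA.p53.1224, a drug-inducible hairpin against p53, on a C57Bl/6 background, so the senescent cells hold the transgene too. Doxycycline, loss of p53 and continued division therefore coincide in the proliferating group and cannot be told apart. Nothing in the labels tells if the 3 arrays per group stem from different mice or cultures, so p-values reflect the spread among these arrays alone, and that spread may be technical. Differences are proliferating minus senescent on the log2 scale, so a positive one means higher in proliferating cells.

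As background, Wnt proteins are lipid-modified by the acyltransferase Porcn, secreted, and bound by Frizzled (Fzd) receptors together with the co-receptors Lrp5 and Lrp6. This stabilises beta-catenin (Ctnnb1), which enters the nucleus and acts with factors of the TCF/LEF family on genes such as Axin2. The ubiquitin ligases Znrf3 and Rnf43 remove Frizzled receptors from the cell surface, and R-spondins, bound to Lgr receptors, hold these ligases back. Secreted Frizzled-related proteins (Sfrp) and Wif1 bind Wnt proteins, and Dickkopf proteins such as Dkk1 and Dkk2 block the co-receptors. Some ligands, Wnt5a among them, act mainly through Ror receptors without beta-catenin. In the liver, Wnt signals and R-spondins are known for setting the zonation of hepatocytes.

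The array medians lay between 6.15 and 6.19, and Pearson correlations across probe sets were 0.995 to 0.997 within groups and 0.989 to 0.992 between them. On the second principal component, proliferating replicate 1 stood apart at 17.7, and the remaining 5 arrays ranged over -12.3 to 4.82. Probe sets of the poly-A spike-in controls, which are added to the RNA before labelling, averaged 10.46 to 10.65 on proliferating arrays and 10.92 to 11.44 on senescent arrays. Of 16 stellate cell markers, 11 were above background on all 6 arrays, among them Acta2, Col1a1, Des and Hand2, while Lrat, Reln, Lhx2 and Gfap were below background on all 6. Background here is 5.57 log2 units, the 95th percentile over 44 probe sets for olfactory receptors, each averaged over the arrays. All 9 mesothelial markers were above background on all 6 arrays, including Msln, Upk3b, Upk1b and Gpm6a. Of 8 endothelial markers 6, of 7 hepatocyte markers 4 (Alb among them) and of 8 macrophage markers 3 (Adgre1 and Ptprc among them) were below background on all arrays, whereas 3 of 4 biliary markers and 5 of 6 portal fibroblast markers were above it on all arrays.

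Proliferating cells had more RNA of the R-spondin gene Rspo1 (5.16-fold), of the secreted antagonists Sfrp2 (at least 2.46-fold) and Sfrp1 (2.77-fold), and of the ligand gene Wnt4 (2.58-fold). Of 12 receptor genes 6 were higher and 1 was lower (58.3% called, against 20.0% of all genes). Fzd1, Fzd4 and Ror2 were 1.85-fold, 1.72-fold and 1.65-fold higher. The ligand gene Wnt9a went the other way and was 1.60-fold lower in proliferating cells. Axin2, Nkd1 and Lef1, which canonical Wnt signalling is known to switch on, did not pass the test. Sp5, another such gene, was lower in proliferating cells, but it was chosen for mention after its value was seen. It comes from a further list of 23 measured genes reported as Wnt targets, of which 5 were higher and 7 lower. Sp5 has 1 probe set, read 5.81 to 6.30 on the proliferating arrays, near background, and did not pass with spike-in scaling (-0.40). Of the 45 members, 15 (33.3%) passed the test (limma, Benjamini-Hochberg adjusted p under 0.05 over all genes), against 20.0% of all genes. Of these, 12 were higher and 3 lower in proliferating cells, against 10.5% and 9.49% of all genes. Without senescent replicate 2, 7 were higher and 3 lower, against 1497 higher and 1348 lower of 18193 genes. The 20.0% used here and below takes in dim genes. With only genes averaging above background fitted, 16 of 35 members passed, against 4020 of 12500 genes. A fold of at least 1.5 was reached by 8 of the called members, against 6.50% of all genes. The arrays of the proliferating and the senescent group did not overlap for 21 members (16 higher, 5 lower), against 37.0% of all genes (19.6% higher, 17.4% lower). The median log2 difference was 0.05 over the members and 0.0018 over all genes.

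All differences are relative to the bulk of genes on the array, because the deposited values were forced to one distribution. Scaling the arrays to the poly-A spike-ins instead moved the median of all genes to 0.60, and then 39 members passed, all of them higher in proliferating cells. The split was thus 100% higher among called members with that scaling, against 80.0% as reported. Centring the arrays on genes of middle level left 76.9% of the called members higher and 36.8% of all called genes, against 80.0% and 52.6% as reported. All genes shared the spike-in shift, so the comparisons below are relative to the bulk of genes. With spike-in scaling 1 value per array was shared by all genes, and each named gene had the same standard error of 0.20. Calls and p-values with that scaling, here and below, are therefore not separate evidence for each gene. The RNA is that of all cells in a sample together, so fewer cells of a type and less RNA per cell cannot be told apart.

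**Figure D1:**
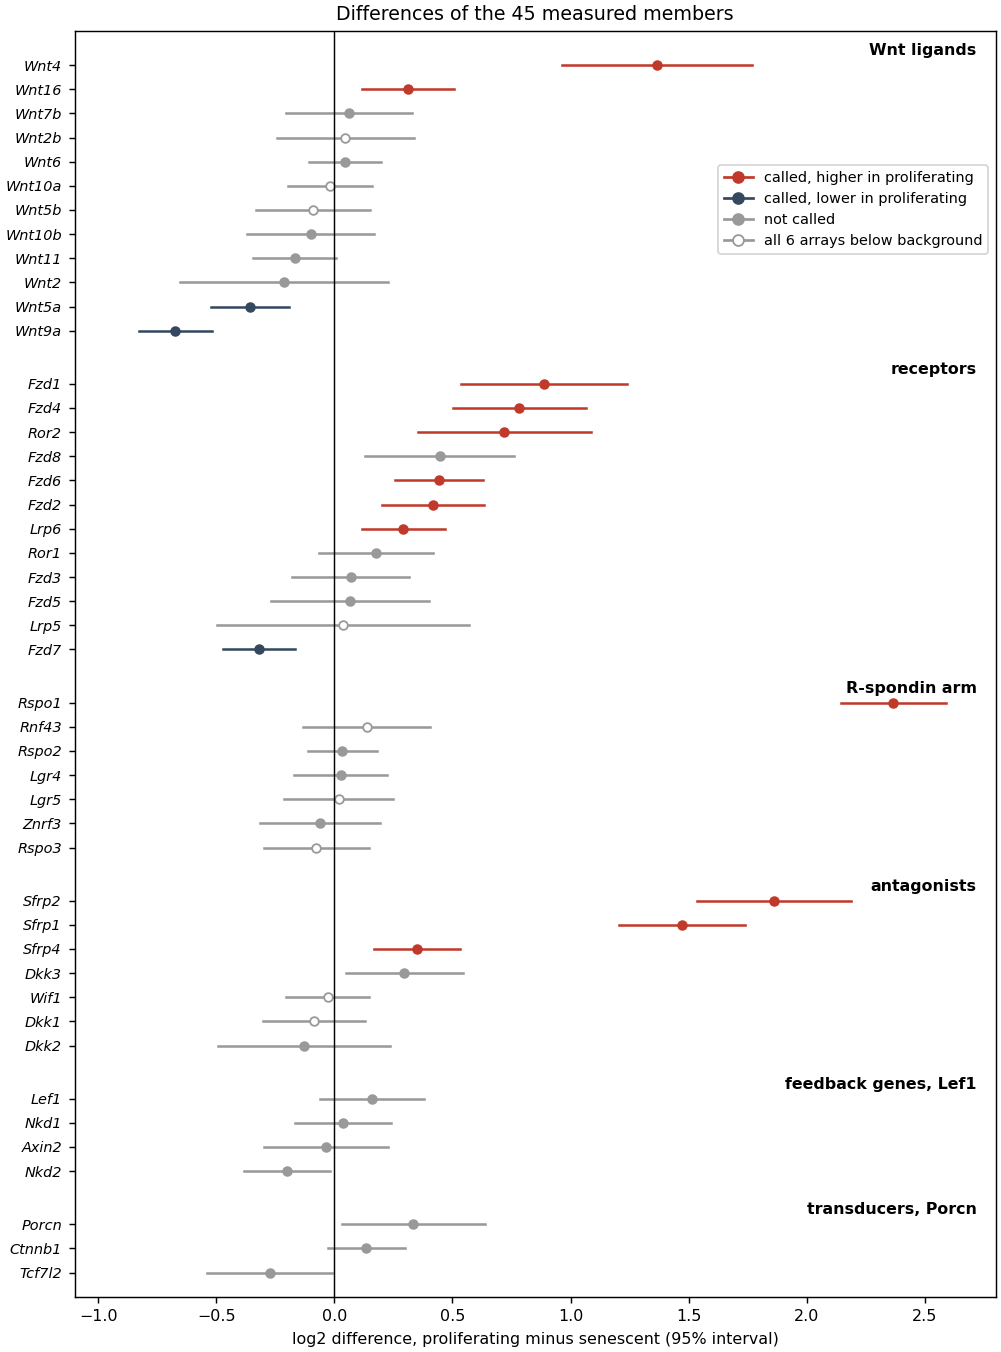
Log2 difference, proliferating minus senescent, of the 45 measured members with 95% intervals (limma, n = 3 arrays per group), grouped by role; coloured points passed the test and open points lay below background on all 6 arrays. Rspo1 at 2.37 lies farthest to the right and Wnt9a at -0.67 farthest to the left.

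Among the 12 ligand genes, 2 were higher in proliferating cells (Wnt4 and Wnt16), 2 were lower (Wnt9a and Wnt5a) and 8 did not pass. The share of ligand genes that passed was 33.3%, against 20.0% of all genes. Wnt4, a ligand known for its part in kidney and female reproductive tract development, read 9.20, 8.52 and 8.56 on the proliferating arrays, against 7.51, 7.24 and 7.43 on the senescent arrays. The groups did not overlap, and the spread was widest in the proliferating group, where replicate 1 was the highest. The log2 difference was 1.37 ± 0.17 (SE, adjusted p = 0.00126). Without proliferating replicate 1 it was 1.15 (adjusted p = 0.000401). A dimmer probe set of Wnt4 gave 0.49 and passed as well (limma over probe sets, adjusted p = 0.0194), and the average of both gave 0.93.

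Wnt9a, a ligand known from joint formation, read 8.46, 8.41 and 8.45 on the proliferating arrays, against 9.13, 9.16 and 9.05 on the senescent arrays. It was lower on every proliferating array, with little spread in either group, and the log2 difference was -0.67 ± 0.07 (adjusted p = 0.000400). Its other probe set, below background in both groups, gave 0.01, and the average of both was -0.33 (adjusted p = 0.0134). With spike-in scaling the difference of Wnt9a was -0.08 (adjusted p = 0.712).

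Wnt5a, the best known ligand of Ror2, read 9.70, 9.67 and 9.65 on the proliferating arrays, against 10.09, 10.06 and 9.93 on the senescent arrays, again without overlap. Its log2 difference was -0.36 ± 0.07 (adjusted p = 0.00981), and it was -0.23 (adjusted p = 0.103) when its 4 probe sets were averaged. Dimmer probe sets gave -0.26 and -0.37 without passing, and the dimmest, below background on all 6 arrays, gave 0.07. Scaling to the spike-ins turned the sign of Wnt5a, to 0.24 (adjusted p = 0.242).

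Wnt16, a ligand described in human fibroblasts as raised in senescence, read 5.96, 6.13 and 6.02 in proliferating cells, against 5.84, 5.72 and 5.62 in senescent cells. All 6 values were close to background, and the proliferating ones were the higher. The log2 difference of 0.31 ± 0.09 (adjusted p = 0.0358) lost its call without proliferating replicate 2 (0.26) or 3 (0.32), and without senescent replicate 2 (0.31) or 3 (0.26). It also lost its call with a variance trend (adjusted p = 0.0570) and with arrays centred on genes of middle level (0.24, adjusted p = 0.0840).

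Of the 8 ligand genes that did not pass, Wnt2b, Wnt5b and Wnt10a lay below background on all 6 arrays. Wnt2, a ligand whose loss has been described in senescent human fibroblasts, read 6.42, 7.24 and 7.12 on the proliferating arrays, against 7.20, 7.07 and 7.14 on the senescent arrays. The low value of proliferating replicate 1 sets its difference of -0.21, which was 0.04 without that array. The differences of Wnt6, Wnt7b, Wnt10b and Wnt11 lay between -0.17 and 0.06.

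**Figure D2:**
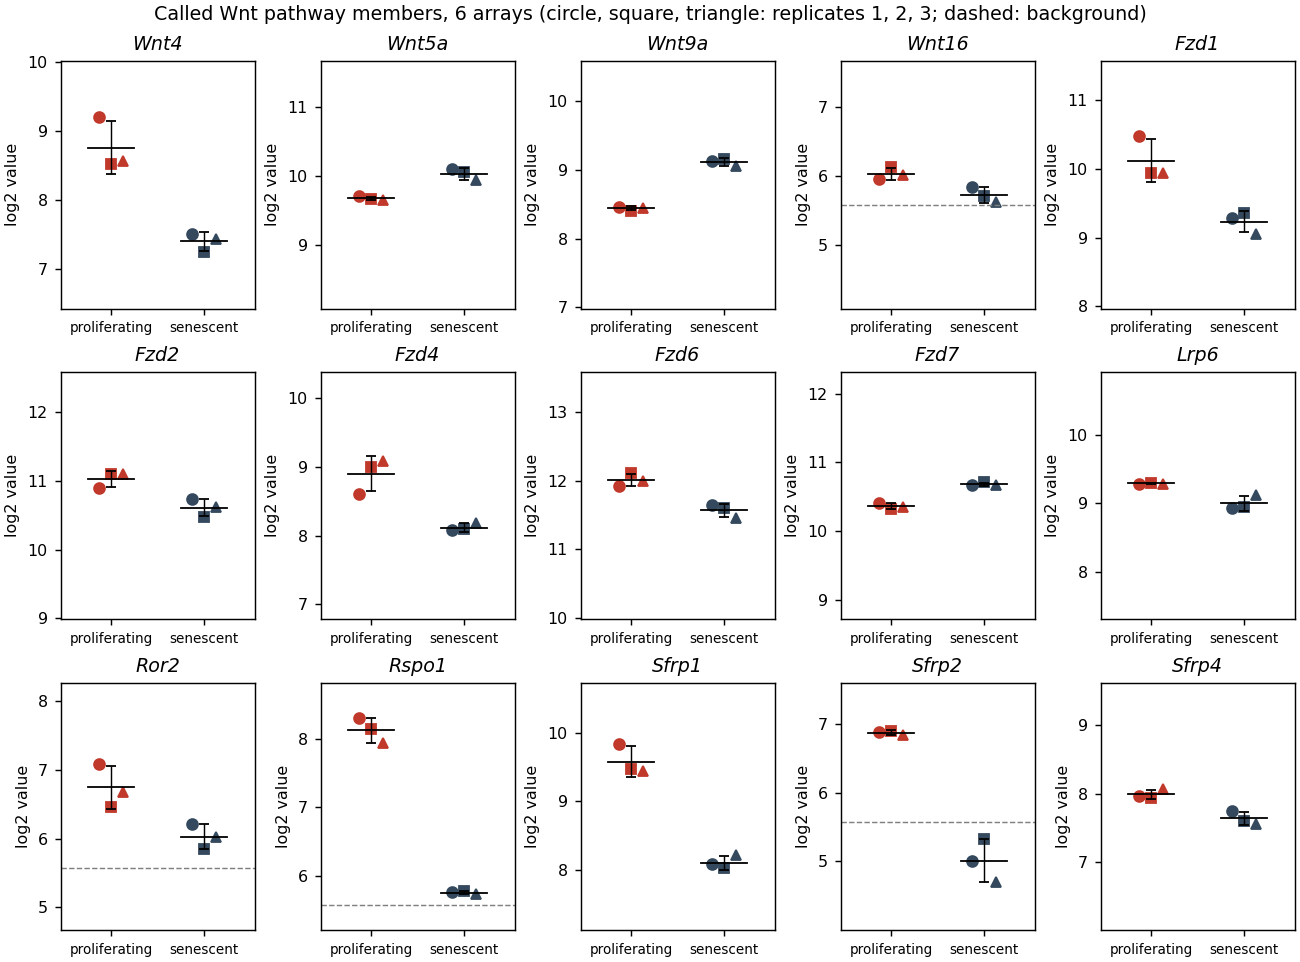
Log2 values of the 15 called members on each array, proliferating left and senescent right, with the group mean and SD (n = 3); every panel spans the same range of log2 units, and the dashed line is background where it falls inside the panel. In all 15 panels the groups do not overlap, and the senescent arrays of Sfrp2 lie below background.

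Receptor genes held the most calls of any role, 6 higher and 1 lower in proliferating cells out of 12 (58.3%, against 20.0% of all genes), with a median log2 difference of 0.35. Without senescent replicate 2, 4 receptor genes passed, against 2845 of 18193 genes. With only genes averaging above background fitted, 8 of 11 receptor genes passed, against 4020 of 12500 genes. Fzd1 read 10.48, 9.94 and 9.94 on the proliferating arrays, against 9.29, 9.36 and 9.06 on the senescent arrays. No array of one group reached the other, and replicate 1 was again the highest proliferating array. The log2 difference was 0.89 ± 0.15 (adjusted p = 0.00498), and 0.71 without proliferating replicate 1. Averaging its 2 probe sets gave 0.56 (adjusted p = 0.0378).

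Fzd4, the receptor of retinal vessel growth, read 8.61, 9.00 and 9.09 in proliferating cells, against 8.08, 8.09 and 8.19 in senescent cells. Here replicate 1 was the lowest proliferating array and still above every senescent one. The log2 difference was 0.78 ± 0.12 (adjusted p = 0.00324), and a second Fzd4 probe set gave 0.39 without passing (limma over probe sets, adjusted p = 0.112). When the gene's probe sets were averaged the difference was 0.43 and still passed (adjusted p = 0.0196).

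Ror2, a receptor tyrosine kinase that binds Wnt5a, read 7.09, 6.47 and 6.69 on the proliferating arrays, against 6.21, 5.85 and 6.02 on the senescent arrays. It was higher on every proliferating array, by 0.72 ± 0.16 on the log2 scale (adjusted p = 0.0151). The call ended without senescent replicate 2 (0.63, adjusted p = 0.0667) or 3 (0.71, adjusted p = 0.0539). The related receptor gene Ror1 had a difference of 0.18 ± 0.11 (adjusted p = 0.312).

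Smaller differences were called for Fzd6 (0.44 ± 0.08, adjusted p = 0.00664) and Fzd2 (0.42 ± 0.09, adjusted p = 0.0160), both higher in proliferating cells. All 3 probe sets of Fzd2 passed in the fit over probe sets. Its call ended, at differences of 0.38, 0.39 and 0.35, without proliferating replicate 2, proliferating replicate 3 or senescent replicate 2. Fzd7 was the one receptor gene lower in proliferating cells. It read 10.41, 10.33 and 10.34 in proliferating cells, against 10.66, 10.71 and 10.67 in senescent cells, a difference of -0.32 ± 0.07 (adjusted p = 0.0109). The other probe set of Fzd7, below background on all 6 arrays, gave 0.02. The call ended when the gene's 2 probe sets were averaged (-0.15, adjusted p = 0.181), and with spike-in scaling the sign turned (0.28, adjusted p = 0.177).

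The co-receptor gene Lrp6 read 9.28, 9.30 and 9.29 on the proliferating arrays, against 8.93, 8.94 and 9.12 on the senescent arrays, a difference of 0.29 ± 0.08 (adjusted p = 0.0295). This call ended when proliferating replicate 1, 2 or 3 or senescent replicate 1 or 2 was left out, with differences of 0.29, 0.29, 0.29, 0.26 and 0.26. It also ended with the mean of the gene's probe sets (0.28, adjusted p = 0.0687) and with centring on genes of middle level (0.22, adjusted p = 0.108). The probe set of Lrp5 lay below background on all 6 arrays, so no fold is given. Fzd8 just missed the threshold at 0.45 ± 0.14 (adjusted p = 0.0557), and its dimmer probe set passed with 1.03 (limma over probe sets, adjusted p = 0.0432). Fzd8 passed without proliferating replicate 1 (0.61, adjusted p = 0.00450), with the mean of its probe sets (0.74), with a variance trend and when dim genes were left out. Fzd3 and Fzd5 had differences of 0.07 and 0.07.

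**Figure D3:**
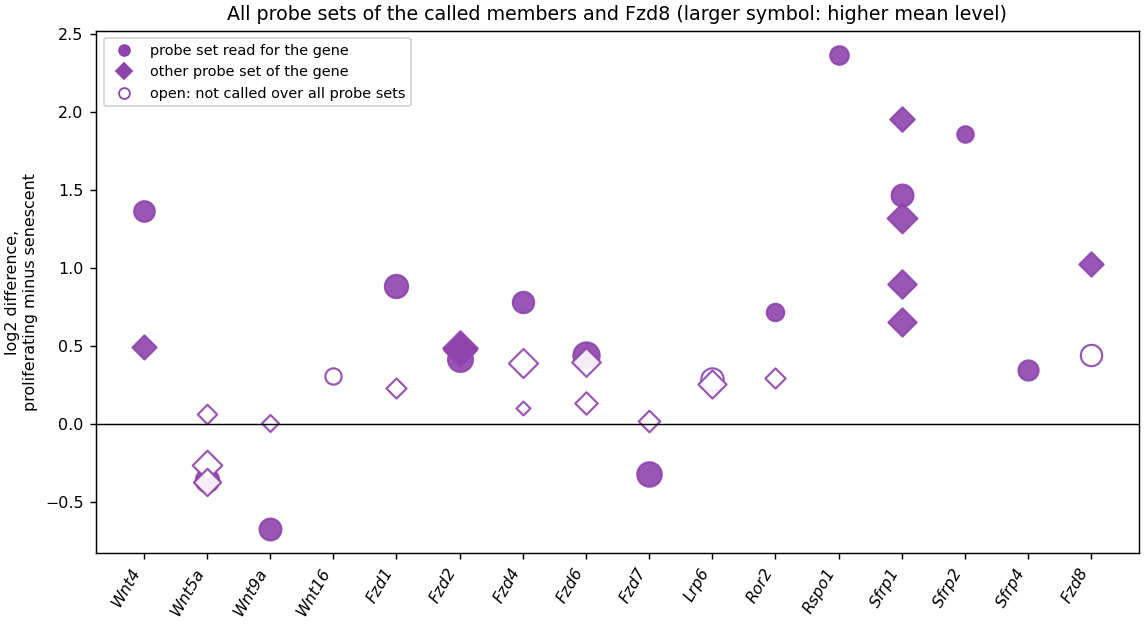
Log2 difference, proliferating minus senescent, of every probe set of the 15 called members and Fzd8; circles are the probe sets read for the gene, diamonds the others, filled symbols passed in the fit over all probe sets, and larger symbols have a higher mean level. All 5 probe sets of Sfrp1 and all 3 of Fzd2 are filled, while Wnt5a, Wnt9a and Fzd7 have 1 filled probe set each.

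In the R-spondin arm the difference was carried by 1 gene of 7 (14.3%, against 20.0% of all genes). Rspo1, a secreted protein that keeps Frizzled receptors on the cell surface, read 8.30, 8.14 and 7.94 on the proliferating arrays, against 5.76, 5.77 and 5.73 on the senescent arrays. The senescent values lay just above background, and no senescent array came within 2 log2 units of a proliferating one. The log2 difference was 2.37 ± 0.10 (adjusted p = 1.16e-05), and with any 1 array left out it stayed between 2.28 and 2.46. The gene has 1 probe set, so no second reading of it exists on the array.

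The other R-spondin genes did not share this. Rspo2 read 6.81, 6.79 and 6.79 in proliferating cells, against 6.73, 6.77 and 6.79 in senescent cells, with a difference of 0.03 ± 0.06 (adjusted p = 0.791). A dimmer probe set of Rspo2, above background on all 6 arrays, gave -0.36 without passing (limma over probe sets, adjusted p = 0.304). The average of both was -0.16. Rspo3 lay below background on all 6 arrays. Of the genes that act next to R-spondins, Lgr4, an R-spondin receptor, read 10.68, 10.71 and 10.63 in proliferating cells and 10.61, 10.80 and 10.52 in senescent cells. Its difference of 0.03 had a 95% interval of -0.17 to 0.22. A 1.5-fold change of the normalized value, 0.58 on the log2 scale, lies outside that interval. The value is relative to the bulk of genes, and with spike-in scaling the difference of Lgr4 was 0.62. For Znrf3, the ligase that R-spondins hold back, the difference was -0.06 with an interval of -0.32 to 0.19. Lgr5 and Rnf43 lay below background on all 6 arrays. Lgr6, an R-spondin receptor gene outside the member list, had a difference of -0.36 without passing (adjusted p = 0.126). Its other probe set gave -0.88 and passed in the fit over probe sets.

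Cell type markers changed in several lists. Of the 16 stellate cell markers 7 passed (43.8%, against 20.0% of all genes), 6 higher in proliferating cells, among them Pdgfrb (1.30), Cygb (1.16) and Col3a1 (0.93), and Timp1 lower (-0.76). Of the 9 markers of mesothelial cells, a cell layer on the liver surface, 6 passed (66.7%), 3 of them higher (Lrrn4, Wt1 and Gpm6a) and 3 lower (Krt18, Msln and Upk1b). Of 6 portal fibroblast markers 3 passed, with Thy1 (-0.79) and Fbln2 (-0.50) lower and Cd34 (0.27) higher. Of 4 biliary markers 2 passed, Krt7 higher (0.69) and Krt19 lower (-0.58). In the endothelial list Cdh5 was lower (-0.72), in the macrophage list Csf1r was lower (-0.35), and 0 of 7 hepatocyte markers passed (limma), also at an unadjusted p under 0.05. Cdh5 lay below background on every proliferating array, so it was at least 1.12-fold lower there, and its other probe set gave 0.12. The mean level of the stellate markers was 9.83 to 9.87 on proliferating arrays and 9.54 to 9.60 on senescent arrays, and that of the mesothelial markers 9.96 to 10.10 on proliferating arrays and 9.87 to 9.93 on senescent arrays. The portal fibroblast markers averaged 8.72 to 8.82 on proliferating arrays and 8.77 to 8.95 on senescent arrays. The part of these cell types in the differences of Rspo1, Wnt4 and the other members was not tested.

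Of the 7 antagonist genes 3 passed (42.9%, against 20.0% of all genes), all higher in proliferating cells. These 3 genes encode secreted Frizzled-related proteins. Sfrp1, described in human cells as secreted in senescence, read 9.84, 9.47 and 9.44 on the proliferating arrays, against 8.08, 8.02 and 8.22 on the senescent arrays. The groups were well apart, with a log2 difference of 1.47 ± 0.12 (adjusted p = 0.000141). All 5 probe sets of the gene passed, with differences of 0.66 to 1.96.

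Sfrp2 read 6.88, 6.90 and 6.84 in proliferating cells, against 5.00, 5.33 and 4.70 in senescent cells. Every senescent array lay below background and every proliferating array above it, so the gene was at least 2.46-fold higher in proliferating cells (fitted log2 difference 1.86 ± 0.14, adjusted p = 0.000121). Sfrp4 read 7.96, 7.93 and 8.07 in proliferating cells, against 7.75, 7.60 and 7.57 in senescent cells. Its difference of 0.35 ± 0.08 (adjusted p = 0.0163) lost the call without proliferating replicate 3 (0.31), senescent replicate 2 (0.33) or senescent replicate 3 (0.31).

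Dickkopf genes gave no call. Dkk3, a divergent family member, read higher on every proliferating array, at 7.62, 7.34 and 7.24 in proliferating cells, against 7.08, 7.02 and 7.21 in senescent cells, yet the difference of 0.30 ± 0.11 did not pass (adjusted p = 0.0960). A dimmer probe set of Dkk3 gave 0.59 without passing (limma over probe sets, adjusted p = 0.0906), and the average of both gave 0.44 (adjusted p = 0.0547). Dkk2 had a difference of -0.13 (adjusted p = 0.646). Dkk1 and Wif1 lay below background on all 6 arrays, so no fold is given for them.

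The 4 measured feedback and target genes held 0 calls (limma), and 1 of them, Nkd2, had an unadjusted p under 0.05. Axin2, a scaffold of the complex that degrades beta-catenin and a widely used readout of canonical signalling, read 6.37, 6.19 and 5.97 on the proliferating arrays, against 6.20, 6.09 and 6.35 on the senescent arrays. The groups overlapped, and the difference of -0.04 ± 0.11 had a 95% interval of -0.30 to 0.23. Nkd1, an inhibitor that binds dishevelled, had a difference of 0.04 with an interval of -0.17 to 0.24. The 3 dimmer probe sets of Nkd1 gave 0.56, 0.36 and 0.12 without passing, and the average of all 4 was 0.27 (adjusted p = 0.149). The related gene Nkd2 was lower on every proliferating array, by -0.20 ± 0.08, without passing (adjusted p = 0.119). Lef1, a nuclear partner of beta-catenin, read 5.59, 5.27 and 5.36 in proliferating cells, against 5.26, 5.18 and 5.31 in senescent cells, above background on 1 proliferating array alone. An unchanged level is not shown by these values. A 1.5-fold change of the normalized Axin2 value, relative to the bulk of genes, lies outside its interval. Axin2 lay not far above the background of 5.57, where such normalization compresses differences, so the interval does not bound the change of its RNA. With spike-in scaling Axin2 had a difference of 0.56 (adjusted p = 0.00844), within the shift of 0.60 of all genes. That p-value rests on the scaling shared by all genes and is not separate evidence for Axin2.

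Ctnnb1, Tcf7l2 and Porcn also gave 0 calls (limma), with an unadjusted p under 0.05 for Tcf7l2 and Porcn. Ctnnb1, the gene of beta-catenin, read 13.63, 13.73 and 13.68 in proliferating cells, against 13.51, 13.62 and 13.49 in senescent cells, a difference of 0.14 ± 0.07 with an interval of -0.03 to 0.30. Tcf7l2, a TCF/LEF factor, had a difference of -0.27 ± 0.11 (adjusted p = 0.142), which passed without proliferating replicate 1 (-0.41, adjusted p = 0.0124). Porcn had 0.33 ± 0.13 (adjusted p = 0.121) and passed without proliferating replicate 2 (0.46, adjusted p = 0.0341).

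**Figure D4:**
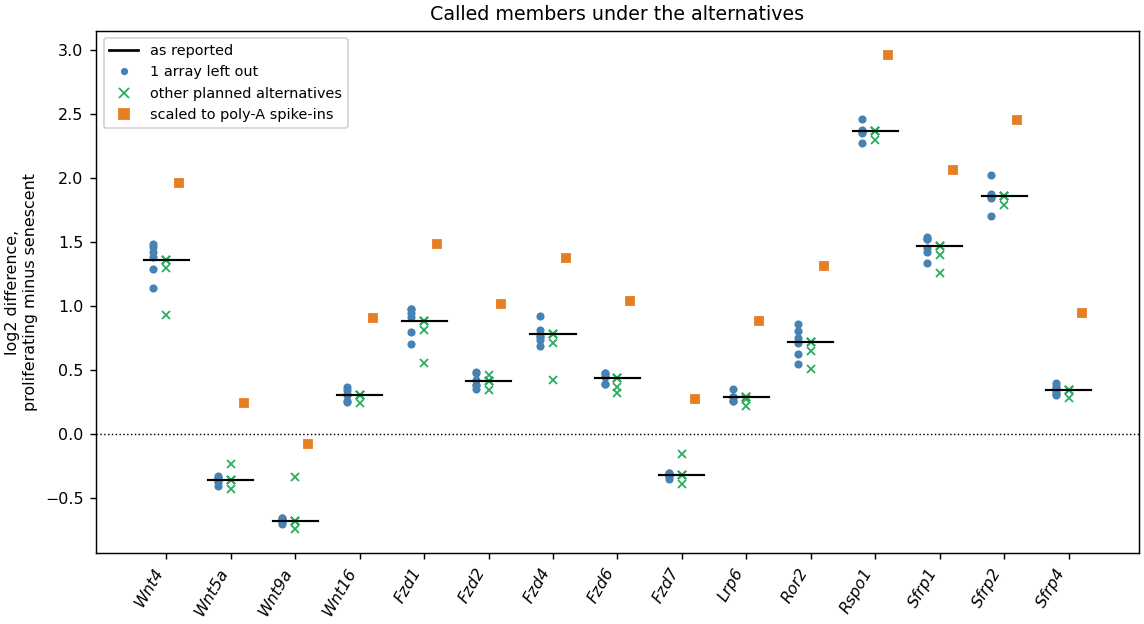
Log2 difference, proliferating minus senescent, of the 15 called members as reported (black line), with each array left out in turn (blue points), under the other alternatives (green crosses) and with arrays scaled to the poly-A spike-ins (orange squares). Spike-in scaling lifts every gene and takes Wnt5a to 0.24 and Fzd7 to 0.28.

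Promoter sequence is shown for the 3 members with the largest higher readings in proliferating cells that have an entry in the RefSeq promoter table (Rspo1, Sfrp2 and Wnt4) and for Wnt9a, the member with the largest lower reading. Each run holds the 250 bases before the annotated start, 5' to 3' on the gene's strand (GRCm38.p6). Capitals mark the GC box GGGCGG on either strand, the only motif searched that was found in these 4 windows. It was found before Wnt4 and Wnt9a and not before Rspo1 or Sfrp2.
Rspo1 (chr4:124986180-124986429, + strand): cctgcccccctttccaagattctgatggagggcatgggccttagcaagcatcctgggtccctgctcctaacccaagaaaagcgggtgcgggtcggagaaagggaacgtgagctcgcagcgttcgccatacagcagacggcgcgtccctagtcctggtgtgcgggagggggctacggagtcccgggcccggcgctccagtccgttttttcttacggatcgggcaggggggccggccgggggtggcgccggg
Sfrp2 (chr3:83766071-83766320, + strand): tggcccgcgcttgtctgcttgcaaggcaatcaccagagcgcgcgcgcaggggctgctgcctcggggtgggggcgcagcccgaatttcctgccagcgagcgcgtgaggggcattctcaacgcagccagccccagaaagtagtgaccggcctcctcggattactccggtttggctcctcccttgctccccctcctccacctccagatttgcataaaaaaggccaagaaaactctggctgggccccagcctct
Wnt4 (chr4:137277385-137277634, + strand): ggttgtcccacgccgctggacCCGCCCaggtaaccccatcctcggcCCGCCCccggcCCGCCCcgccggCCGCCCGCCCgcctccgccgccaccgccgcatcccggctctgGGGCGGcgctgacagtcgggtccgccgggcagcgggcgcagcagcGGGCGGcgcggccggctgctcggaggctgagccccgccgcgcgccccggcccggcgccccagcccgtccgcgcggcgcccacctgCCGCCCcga
Wnt9a (chr11:59306680-59306929, + strand): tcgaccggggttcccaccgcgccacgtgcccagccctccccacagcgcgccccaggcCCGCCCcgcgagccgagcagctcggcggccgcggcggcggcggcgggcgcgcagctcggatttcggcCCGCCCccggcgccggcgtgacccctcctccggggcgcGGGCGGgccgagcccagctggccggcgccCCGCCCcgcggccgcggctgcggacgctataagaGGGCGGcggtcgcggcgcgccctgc
Entries were found for 28 of the 45 members, with 37 promoters. The searched motifs were the TCF/LEF sites CTTTGAT and CTTTGAA, the AP-1 site TGANTCA, the CCAAT box CCAAT, the GC box GGGCGG and the p53 half-site, each on both strands, and they do not contain one another. CTTTGAT was found before 2 members (Wnt11 and Wnt5b) and in 3.21% of 32851 promoters, CTTTGAA before Dkk1 and in 4.46% of promoters. The p53 half-site was found before Wnt11 and in 7.13% of promoters, the AP-1 site before Ror2 and Wnt5b and in 6.75%, and the CCAAT box before 10 members and in 33.8%. Of the 9 called members with an entry, 0 held either TCF/LEF motif or the p53 half-site in this window, and 5 held a GC box. The GC box was found in 59.5% of the member promoters and 32.7% of all promoters, and the median GC content of these windows was 63.6% for the members and 52.4% for all. The window of Wnt4 held 85.2% G and C and that of Wnt9a 84.4%, against 66.8% for Rspo1 and 63.6% for Sfrp2. A match is a stretch of letters and not a shown binding site.

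The rest of the pathway was read from a further list of 115 genes, 113 of them measured. Of these 31 (27.4%) passed, against 20.0% of all genes, with 18 higher and 13 lower in proliferating cells and a median log2 difference of 0.02. With only genes averaging above background fitted, 34 of 94 further genes passed, against 4020 of 12500 genes. Of 10 further ligand and secretion genes 0 passed (limma), also at an unadjusted p under 0.05. Wls, the carrier that brings Wnt proteins to the cell surface, had a difference of -0.09 ± 0.09 and Wnt7a 0.09 ± 0.15.

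The list of further antagonists and secreted modulators gave 3 calls of 10 (30%, against 20.0% of all genes), all higher in proliferating cells. Frzb, another secreted Frizzled-related protein, read 8.64, 9.44 and 9.34 on the proliferating arrays, against 8.41, 8.48 and 8.27 on the senescent arrays. It was higher on every proliferating array, by 0.75 ± 0.19 (adjusted p = 0.0267), a call that ended when any array other than proliferating replicate 1 was left out (differences of 0.60 to 0.80, adjusted p up to 0.0950). Apcdd1, a membrane-bound inhibitor of Wnt signalling, differed by 0.63 ± 0.11 (adjusted p = 0.00506) and Cthrc1, a secreted Wnt cofactor, by 0.47 ± 0.14 (adjusted p = 0.0458). The call of Cthrc1 ended without proliferating replicate 2 or 3 or senescent replicate 1 or 3 (0.43, 0.42, 0.52 and 0.32), with centring on genes of middle level (0.40) and with the replicate number as a block (adjusted p = 0.0612). Of the further receptors and surface partners, 2 of 11 passed (18.2%, close to the 20.0% of all genes). Gpc3, a heparan sulphate proteoglycan that binds Wnt proteins, was 2.53-fold higher (1.34 ± 0.27, adjusted p = 0.00943), and its relative Gpc4 was lower (-0.31 ± 0.08, adjusted p = 0.0297). The call of Gpc4 ended when any array other than proliferating replicate 2 was left out (adjusted p up to 0.0858) and with the block (adjusted p = 0.0562), and with spike-in scaling its sign turned (0.28).

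Inside the cell, 9 of 35 canonical cascade genes passed (25.7%, against 20.0% of all genes), 7 higher and 2 lower in proliferating cells. Of the 35, 34 had a group mean above background, and with only genes averaging above background fitted 4020 of 12500 passed. The 20.0% is thus a low yardstick for this list. Amer1, a scaffold that promotes the breakdown of beta-catenin, was 2.43-fold higher (1.28 ± 0.16, adjusted p = 0.00106). Tle2 and Tle3, co-repressors of TCF/LEF factors, differed by 1.23 ± 0.09 and 0.49 ± 0.06. Their relatives Tle1 and Tle4 did not pass, with differences of -0.22 and -0.11. Dact1, which binds dishevelled, was 2.00-fold higher (1.00 ± 0.20, adjusted p = 0.0100). Averaging the 4 probe sets of Tle3 ended its call (0.19, adjusted p = 0.108). The 2 lower genes were Csnk1e, a casein kinase (-0.48 ± 0.09, adjusted p = 0.00595), and Dvl1, a dishevelled protein that relays the signal from Frizzled (-0.38 ± 0.08, adjusted p = 0.0128), both named after their values were seen. With spike-in scaling the signs of both turned (0.11 and 0.22). The related gene Dvl2 went the other way and was higher in proliferating cells (0.43 ± 0.08, adjusted p = 0.00505). Averaging its probe sets ended that call (0.20, adjusted p = 0.0604). Dvl3 had a difference of 0.11 and did not pass.

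Of 24 genes of planar polarity and calcium signalling, the branches without beta-catenin, 5 passed (20.8%, close to the 20.0% of all genes). Prickle1 and Prickle2, planar polarity proteins, were higher in proliferating cells by 1.21 ± 0.11 and 0.70 ± 0.16 (Prickle1 0.36 with its 3 probe sets averaged), and Nfatc1 and Camk2d, of calcium signalling, were lower, with -0.42 ± 0.09 and -0.35 ± 0.09. The call of Prickle2 ended without senescent replicate 2 (0.73) or 3 (0.62). That of Nfatc1 ended without proliferating replicate 2 or 3 or senescent replicate 1 or 2 (adjusted p up to 0.0618), and that of Camk2d without proliferating replicate 1 or 2 or senescent replicate 2 or 3 (adjusted p up to 0.0787). Spike-in scaling turned the signs of Nfatc1 (0.18) and Camk2d (0.25).

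Genes reported elsewhere as Wnt targets split. Of 23 measured, 12 passed (52.2%, against 20.0% of all genes), 5 higher and 7 lower in proliferating cells. Cldn1, a tight junction protein, was 4.96-fold higher, with 9.19, 9.68 and 9.62 on the proliferating arrays, against 7.34, 7.25 and 6.98 on the senescent arrays. Its difference of 2.31 ± 0.15 was 0.95 when its 4 probe sets were averaged. Fosl1, a subunit of AP-1, was 2.77-fold lower (-1.47 ± 0.11, adjusted p = 0.000130). Ccn5, a secreted matricellular protein, had a difference of 1.30 ± 0.26, which missed the threshold without senescent replicate 2 (1.21, adjusted p = 0.0528), and Snai2, a transcription factor of mesenchymal cells, 1.15 ± 0.09. Sp5, a transcription factor gene switched on directly by canonical signalling, read 6.30, 6.03 and 5.81 in proliferating cells, against 7.19, 7.08 and 6.86 in senescent cells, and Ccnd1, the gene of cyclin D1, differed by -0.63 ± 0.08. Both were chosen for mention after their values were seen, and with spike-in scaling neither passed (-0.40 and -0.04). Many of these genes also answer to other signals, and the list does not isolate Wnt activity.

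**Figure D5:**
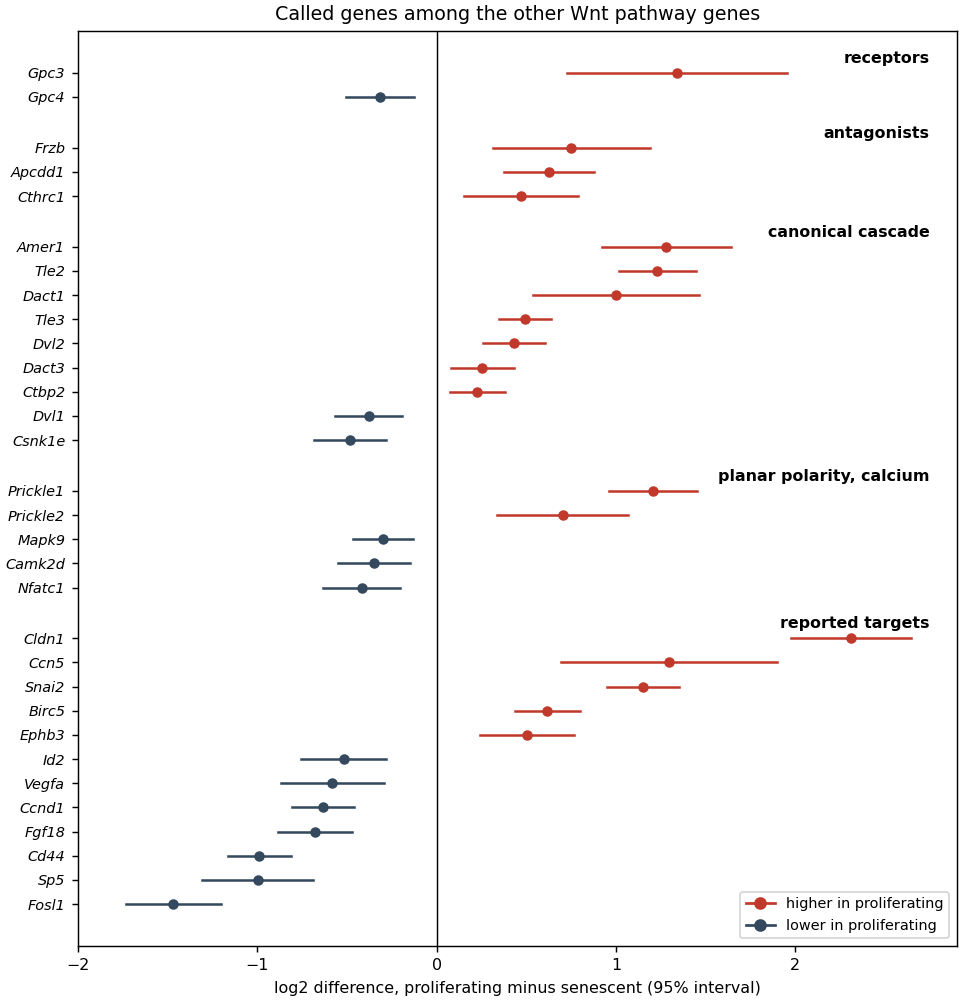
Log2 difference, proliferating minus senescent, with 95% intervals for the 31 called genes of the further pathway list, by role (n = 3 arrays per group). The 3 genes of the antagonist list, which holds the cofactor Cthrc1, are to the right of 0, and the reported targets lie on both sides, with Cldn1 at 2.31 and Fosl1 at -1.47.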

How the data were processed

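The authors deposited 1 log2 value per probe set and array, computed by RMA, as the submitters' processing notes name it. This method corrects background, quantile normalizes and summarises probes. Such normalization removes a shift shared by most genes and compresses differences of dim probe sets. No batch, software version or scan date is given in the labels used here. Groups came from the sample titles.

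Of 45101 probe sets, 34958 have 1 gene symbol in the platform annotation, updated through the Entrez number with RefSeq (GRCm38.p6). Probe sets with several genes (932) or not listed with one (9211) were not used. The brightest probe set stood for each of 18193 genes. These were fitted with lmFit and eBayes of limma 3.58.1 (R 4.3.3), proliferating minus senescent, without covariates, with Benjamini-Hochberg adjustment across all of them. The median standard error was 0.0884. The fit was tested on simulated data. The number of arrays limits the precision.

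Where all arrays of 1 group lay below background and the other group's mean above it, the fold is a bound, that mean against background. Values on every array are given for called members with a fold of at least 1.5 and for members of the same family or role. From the other lists, up to 4 called genes by size and the 2 brightest of a list with fewer than 2 calls are named. Some further genes and relatives of named genes were added after their values were seen. Members, lists and tests were chosen with earlier results of these data known. Alternatives changed the probe set rule, variance model, filter, scaling, block and arrays. Figures used matplotlib 3.10.9 in Python 3.11.15.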

Additional observations from a re-analysis of the deposited data

How the results depend on the processing

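Leaving out 1 array at a time gave 10 to 16 called members (7 to 12 higher and 3 to 4 lower in proliferating cells), 20 to 29 called genes of the further pathway list (12 to 17 higher, 8 to 12 lower) and 2434 to 3337 called genes in all (1305 to 1774 higher, 1129 to 1563 lower). The counts of 7 higher members and of 20 further genes with 8 lower came without senescent replicate 2, and the 1129 lower genes without senescent replicate 1. Averaging the probe sets of a gene left 1 lower member. Over the 12 alternatives other than spike-in scaling, 8 of the 15 called members kept their call throughout, and 3 of the 30 uncalled members passed in at least 1. For 69 of the named genes, 61 of 818 values changed their call, the cause of which was not tested. Of these values, 0 that passed before or after turned sign.

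Scaling to the poly-A spike-ins gave 39 called members (39 higher, 0 lower), 95 further genes (94 higher, 1 lower) and 15338 genes in all (15165 higher, 173 lower). These calls rest on 1 scaling value per array shared by all genes. The added shift of 0.60 turned the sign of these genes, which passed as reported or with that scaling: Wnt5a (0.24), Wnt5b (0.51), Wnt10a (0.58), Wnt10b (0.50), Wnt11 (0.43), Fzd7 (0.28), Rspo3 (0.52), Znrf3 (0.54), Dkk1 (0.51), Dkk2 (0.47), Wif1 (0.57), Axin2 (0.56), Wls (0.51), Gpc4 (0.28), Csnk1e (0.11), Dvl1 (0.22), Nfatc1 (0.18) and Camk2d (0.25). It also turned Wnt2 (0.38), Nkd2 (0.39) and Tcf7l2 (0.32), which passed in neither. The cause of the spike-in difference between the groups was not tested.

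With the replicate number as a block, 13 members, 26 further genes and 2935 genes in all passed, and the calls of Wnt16, Lrp6, Gpc4 and Cthrc1 ended. Whether the numbers pair the samples is not known. Deviations of same-numbered arrays correlated at 0.09, -0.07 and -0.15 across genes, and those of differently numbered arrays at -0.21 to 0.24. With 3 arrays per group these correlations cannot decide it.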
